A study of Mus musculus with 6 samples.

Results

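The PGC-1, PPAR and ERR metabolic regulators are transcription factors and coactivators that set the capacity of heart muscle to burn fatty acids and to build mitochondria. They were chosen by gene symbol as Ppargc1a, Ppargc1b, Ppara, Ppard, Rxra, Esrra, Esrrb, Esrrg, Tfam and Nrf1, and all 10 were found among the 24062 symbols of the deposited count table. RNA-seq had been done on both heart ventricles of male C57/Bl6N mice at 1 day after birth (P1). The 3 Med12cKO (CrePOS) libraries came from mice with a cardiac-specific knockout of Med12, which lies on the X chromosome and encodes a Mediator subunit that activates its kinase module, and the 3 CTL (CreNEG) libraries from mice without Cre recombinase. The sources used here do not give the promoter that drives Cre, the Med12 allele of the CTL mice or any pooling of animals. Because Cre was present in the Med12cKO group alone, its own effect and that of losing Med12 cannot be told apart. The comparison asked how the levels of these regulators differed between Med12cKO and CTL ventricles. In bulk ventricle, fewer cells of a type and less RNA per cell cannot be told apart.

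PGC-1 coactivators do not bind DNA themselves. They dock onto nuclear receptors, among them the PPARs, which bind fatty acids and pair with RXR on DNA, and the estrogen-related receptors (ERRs), which need no known hormone. PPAR targets encode enzymes of fatty acid uptake and oxidation, and ERR targets encode much of the respiratory chain and citric acid cycle. Nuclear respiratory factor NRF1 acts on promoters of nuclear genes for mitochondrial proteins, including that of TFAM. TFAM packages mitochondrial DNA and acts in its transcription. The heart draws on this network after birth, when it turns from glucose and lactate to fatty acids as its main fuel.

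The upstream sequences of the regulators are shown because members of the network are known to act on each other's promoters. Windows of 250 bases before annotated start sites came from RefSeq on GRCm38.p6, where 9 of the 10 symbols matched (not Ppargc1b) with 15 windows. Each was searched on both strands for GCATGCGC (NRF1), CCGGAAGT (ETS factors such as GABPA), TNAAGGTCA (ERR), its core AAGGTCA, the direct repeat with 1-base spacing bound by PPAR with RXR (DR1), TGACGTCA and its core TGACGT (CREB), and the MEF2 motif. AAGGTCA lies within the ERR motif, and TGACGT within the CREB motif, so these matches overlap by construction. Capitals mark the matches (that of Ppargc1a lies on the opposite strand of the window). Each window with a match is shown, and so is the first of 2 Esrrb windows, which held none. The other windows of Esrrb, Rxra and Esrrg (4 windows in all) and those of Nrf1 and Ppard held no match and are not shown.
Ppargc1a (chr5:51567726-51567975, minus strand): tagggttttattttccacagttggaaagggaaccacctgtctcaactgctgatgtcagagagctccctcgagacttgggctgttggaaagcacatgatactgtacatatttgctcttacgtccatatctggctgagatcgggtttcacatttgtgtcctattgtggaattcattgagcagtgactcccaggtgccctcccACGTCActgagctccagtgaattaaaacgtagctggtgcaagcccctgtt
Ppara (chr15:85735526-85735775, plus strand): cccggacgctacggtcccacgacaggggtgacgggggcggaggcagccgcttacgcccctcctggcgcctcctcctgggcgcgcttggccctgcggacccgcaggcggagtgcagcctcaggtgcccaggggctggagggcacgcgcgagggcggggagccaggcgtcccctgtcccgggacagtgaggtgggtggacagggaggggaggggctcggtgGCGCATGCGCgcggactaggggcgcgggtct
Rxra (chr2:27709042-27709291, plus strand): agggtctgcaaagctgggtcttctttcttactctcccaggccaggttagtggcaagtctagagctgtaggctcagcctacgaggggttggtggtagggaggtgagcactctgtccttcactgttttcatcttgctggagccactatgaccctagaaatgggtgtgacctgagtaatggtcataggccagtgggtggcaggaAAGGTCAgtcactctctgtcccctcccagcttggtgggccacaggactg
Esrra (chr19:6921809-6922058, minus strand): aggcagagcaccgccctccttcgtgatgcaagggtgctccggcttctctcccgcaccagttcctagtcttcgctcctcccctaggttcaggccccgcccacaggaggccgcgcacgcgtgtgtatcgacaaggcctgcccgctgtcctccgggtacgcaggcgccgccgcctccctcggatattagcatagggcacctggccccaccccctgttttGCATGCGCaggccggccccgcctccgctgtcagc
Esrrb (chr12:86360867-86361116, plus strand): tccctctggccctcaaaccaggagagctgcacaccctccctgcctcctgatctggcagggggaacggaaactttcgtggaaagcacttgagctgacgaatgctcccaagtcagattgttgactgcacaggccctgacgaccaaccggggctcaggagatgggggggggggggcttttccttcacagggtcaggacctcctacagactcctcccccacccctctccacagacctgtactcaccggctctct
Esrrg (chr1:187608756-187609005, plus strand): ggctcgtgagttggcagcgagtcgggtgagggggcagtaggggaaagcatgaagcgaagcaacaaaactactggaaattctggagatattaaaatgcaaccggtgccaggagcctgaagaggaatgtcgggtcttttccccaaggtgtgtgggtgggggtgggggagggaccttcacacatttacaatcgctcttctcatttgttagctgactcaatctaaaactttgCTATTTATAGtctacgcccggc
Tfam (chr10:71238045-71238294, minus strand): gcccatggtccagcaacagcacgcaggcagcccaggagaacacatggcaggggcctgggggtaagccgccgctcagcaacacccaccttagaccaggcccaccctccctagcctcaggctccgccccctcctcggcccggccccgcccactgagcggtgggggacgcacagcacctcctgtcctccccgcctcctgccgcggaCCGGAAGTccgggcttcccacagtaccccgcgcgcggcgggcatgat

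The NRF1 motif was present in the Ppara and Esrra windows, and in Ppara it is a palindrome that matches on both strands. Of 32851 upstream windows of the same length, 2.26% held it. The ETS motif of Tfam was held by 2.88% of windows, the AAGGTCA core found at the second Rxra start site by 4.08%, the TGACGT core of Ppargc1a by 6.47% and the MEF2 motif of Esrrg by 0.14%. The ERR motif (1.14% of windows), the PPAR and RXR motif (0.0335%) and the complete CREB motif (1.55%) were in none of the 15 windows. A match is a description of the letters and not evidence of binding.

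Totals ran from 8453346 to 10911698 counts per library, and 13629 genes passed the filter on low counts, all 10 regulators among them. Counts behind a regulator ran from 80 to 1784 per library. Levels below are counts scaled to a common library size by TMM (CPM). The targeted gene, Med12, measured 61.6, 85.0 and 41.3 CPM in Med12cKO libraries 1 to 3, against 103, 176 and 113 CPM in CTL libraries 1 to 3 (log2 fold change −1.06, SE 0.30, edgeR adjusted p = 0.765). Heart muscle markers were abundant in every library: the 10 markers, all detected, summed to 35514, 43005 and 45247 CPM in Med12cKO, against 55587, 56078 and 43790 CPM in CTL. Transcripts of neighbouring organs were present in some libraries. The 10 thymus markers summed to 808 CPM in Med12cKO library 1, against 800 CPM in CTL library 3, and to between 3.43 and 5.52 CPM in the other 4 libraries. The 6 lung markers summed to 83.7 CPM in Med12cKO library 2, against 68.6 CPM in CTL library 1, and stayed below 8 CPM elsewhere. The 6 liver markers summed to 122 and 27.9 CPM in Med12cKO libraries 1 and 2, against at most 2.53 CPM in CTL. Marker lists of other muscle also differed. The 7 smooth muscle and pericyte markers summed to 1362, 1968 and 1204 CPM in Med12cKO, against 1250, 798 and 691 CPM in CTL. By edgeR 5 were higher and 2 lower in Med12cKO, and 3 of the higher and 1 of the lower reached unadjusted p under 0.05. Only Cnn1 passed after adjustment (log2 fold change 1.70, edgeR adjusted p = 0.0464). Relative to the CTL mean in log2 units, their median was −0.05, 1.09 and −0.19 in Med12cKO libraries 1 to 3. Of 8 tested skeletal muscle markers 7 had a positive log2 fold change (median 1.53), against 52.2% of all genes tested. Of these 7, 2 had an edgeR unadjusted p under 0.05, against 2.16% of all genes higher at that p. The median marker stood highest in Med12cKO library 1. Of 8 atrial markers 6 had a negative log2 fold change (median −0.27), against 47.8% of all genes tested. Of these 6, 4 had an edgeR unadjusted p under 0.05, against 1.61% of all genes lower at that p. Casq1 and Myl7 are given from the skeletal and atrial lists, chosen after their values were seen. They had the largest log2 fold changes of their lists (2.25 and −1.10) and do not stand for the other markers. Abundant markers went the other way, with 0.16 for atrial Myl4, 0.18 for atrial Nppa and −0.16 for skeletal Ckm. Set against the CTL mean on the log2 scale, the median skeletal marker stood at 2.33, 0.34 and 0.0996 in Med12cKO libraries 1 to 3. Casq1 measured 192, 222 and 249 CPM in Med12cKO, against 41.7, 65.7 and 32.0 CPM in CTL, and Myl7 measured 496, 609 and 432 CPM in Med12cKO, against 1240, 1149 and 901 CPM in CTL. For thymus, fits with a thymus term and fits without both thymus-containing libraries were made. The part of the lung, liver, smooth muscle, skeletal and atrial transcripts in the results below was not tested.

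None of the 10 regulators passed edgeR's quasi-likelihood test at an adjusted p under 0.05 over all genes tested, where 3 of 13629 genes did (0.0220%; 0.00734% higher and 0.0147% lower in Med12cKO). DESeq2 and limma-voom also called 0 of the 10. Rxra, the DNA-binding partner of the PPARs, and Esrrb, one of the ERRs, were the 2 members with an unadjusted p under 0.05, a level reached by 3.78% of all genes tested. They were also the 2 members whose Med12cKO and CTL libraries did not overlap, as in 8.23% of all genes (4.59% above and 3.64% below CTL). Rxra lay lower in every Med12cKO library and Esrrb higher. Of the 10 log2 fold changes 8 were negative, against 47.8% of all genes, and their median was −0.12, against 0.01 over all genes tested.

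**Figure D1:**
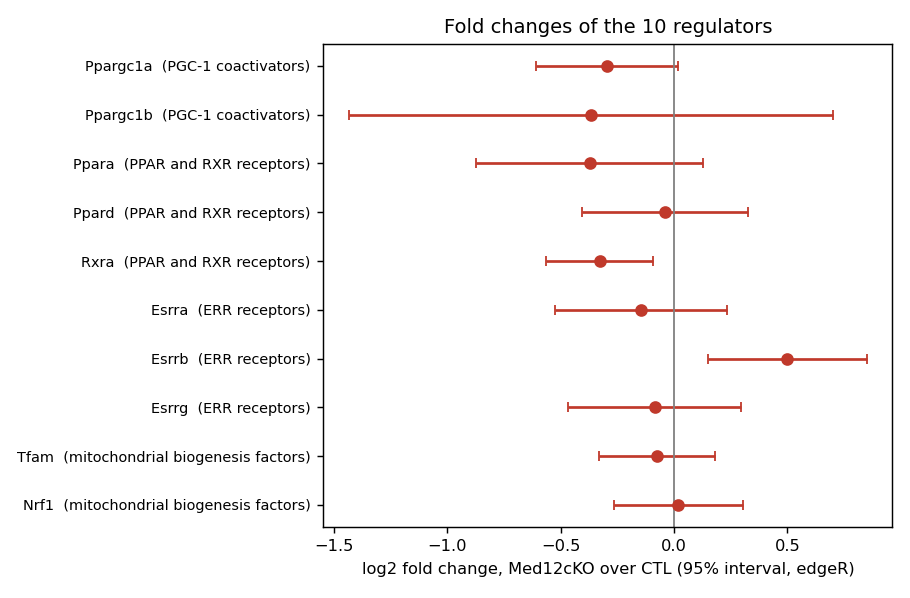
Log2 fold change of each regulator, Med12cKO over CTL (x axis), with its 95% interval from edgeR's quasi-likelihood fit, for the 10 genes named with their role on the y axis. The intervals of Rxra (−0.56 to −0.09) and Esrrb (0.15 to 0.85) lie to one side of 0, and those of the other 8 genes include 0.

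The coactivator gene Ppargc1a (chromosome 5, 51454250 to 51567726, minus strand of GRCm38) encodes PGC-1α, which is induced by cold, fasting and exercise and drives mitochondrial biogenesis. It measured 116, 146 and 109 CPM in the Med12cKO libraries, against 145, 167 and 144 CPM in the CTL libraries. Med12cKO libraries 1 and 3 lay below every CTL library, while Med12cKO library 2 reached the CTL range. The means were 124 ± 19.6 CPM in Med12cKO and 152 ± 13.1 CPM in CTL (SD, n = 3 each). The log2 fold change was −0.30 (SE 0.14, 95% interval −0.61 to 0.02, edgeR adjusted p = 1.00). Its paralog Ppargc1b (chromosome 18, 61298136 to 61400431, minus strand) encodes PGC-1β, which supports basal mitochondrial gene expression. It was the most variable of the regulators, with 9.02, 27.4 and 12.7 CPM in Med12cKO, against 14.8, 29.5 and 19.0 CPM in CTL. The groups overlapped widely, because library 2 was high in both. The log2 fold change of Ppargc1b was −0.37 with a standard error of 0.45, and its interval of −1.43 to 0.70 holds changes in either direction. Single libraries set its size: it was −0.96 without Med12cKO library 2, −0.09 without Med12cKO library 1, −0.21 without Med12cKO library 3, −0.56 without CTL library 1 and −0.04 without CTL library 2.

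Ppara (chromosome 15, 85734983 to 85802819, plus strand) encodes the PPAR that dominates fatty acid oxidation in heart and liver. It measured 29.5, 49.2 and 34.3 CPM in Med12cKO, against 42.0, 61.4 and 42.9 CPM in CTL. As with Ppargc1b, library 2 of each group was the highest, and Med12cKO library 2 lay above CTL libraries 1 and 3. The Med12cKO mean was 77.3% of the CTL mean, with a log2 fold change of −0.37 (SE 0.22, 95% interval −0.87 to 0.13). It was −0.61 without Med12cKO library 2, −0.23 without Med12cKO library 1 and −0.17 without CTL library 2. Ppard (chromosome 17, 28232700 to 28301474, plus strand), the broadly expressed PPAR, measured 29.0, 22.9 and 34.5 CPM in Med12cKO, against 29.8, 28.0 and 31.0 CPM in CTL. The Med12cKO libraries spread around the CTL values on both sides, and the log2 fold change was −0.04 (95% interval −0.41 to 0.33). Within the 4 libraries whose sample description opens with the letter I, a letter the labels do not explain, the Med12cKO mean of Ppara was 31.9 CPM and the CTL mean 52.2 CPM. In the pair with the letter J, 1 library a group, it was 49.2 CPM in Med12cKO and 42.0 CPM in CTL, the opposite order. Ppargc1b differed in the same way, with 10.9 CPM in Med12cKO and 24.3 CPM in CTL under the letter I, and 27.4 CPM in Med12cKO and 14.8 CPM in CTL under the letter J.

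Rxra (chromosome 2, 27676440 to 27762957, plus strand) encodes an RXR that mice need for heart development, and with which PPARs, thyroid hormone receptors and retinoic acid receptors pair. It measured 103, 105 and 111 CPM in Med12cKO, against 129, 140 and 132 CPM in CTL. All 3 Med12cKO libraries lay below all 3 CTL libraries, with little spread in either group. The means were 106 ± 3.97 CPM in Med12cKO and 133.5 ± 6.0 CPM in CTL (SD, n = 3 each), so the Med12cKO mean was 79.7% of the CTL mean. The log2 fold change was −0.33 (SE 0.11, edgeR adjusted p = 0.834). Because the groups did not overlap, the same order had to hold under both description letters. The means under I were 107 CPM in Med12cKO and 136 CPM in CTL. Under J, with 1 library a group, the values were 105 CPM in Med12cKO and 129 CPM in CTL. The Rxra log2 fold change lay between −0.36 and −0.29 in the 18 alternative fits. Their shared sign is not a separate result, since groups that do not overlap keep their order when libraries are left out. The adjusted p of these fits (edgeR, DESeq2 or limma-voom) was never below 0.343. With a thymus term the log2 fold change of Rxra was −0.33. Its unadjusted p stayed under 0.05 in 16 of the 18 alternatives, and not in the fit without both thymus-containing libraries (−0.32) or without CTL library 2 (−0.29). Of the 10 heart muscle markers 9 also had a negative log2 fold change (median −0.26), with Med12cKO library 3 within the CTL range of their sum. Their part in the Rxra difference was not tested.

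Esrra, the most abundant ERR gene (chromosome 19, 6910977 to 6921813, minus strand), encodes ERRα, a main partner of PGC-1α on genes of the respiratory chain. It measured 131, 120 and 184 CPM in Med12cKO, against 168, 170 and 144 CPM in CTL. The Med12cKO libraries lay on both sides of the CTL range, with library 3 highest of all. For Esrra the log2 fold change was −0.14 (SE 0.17, 95% interval −0.52 to 0.23), and without Med12cKO library 3 it was −0.36 (edgeR adjusted p = 0.588). It was −0.03 without Med12cKO library 2, −0.09 without Med12cKO library 1 and −0.22 without CTL library 3. Esrra shares 3.74% of its exon bases with neighbouring annotated genes, and its count is uncertain to that extent.

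Esrrb (chromosome 12, 86361117 to 86521628, plus strand) encodes ERRβ, known in mice for its part in embryonic stem cells, placenta and inner ear. It measured 20.7, 21.9 and 23.4 CPM in Med12cKO, against 14.4, 17.6 and 14.6 CPM in CTL. Every Med12cKO library lay above every CTL library. The means were 22.0 ± 1.30 CPM in Med12cKO and 15.5 ± 1.80 CPM in CTL (SD, n = 3 each), 1.42-fold higher in Med12cKO. The log2 fold change was 0.50 (SE 0.16, edgeR adjusted p = 0.776). The counts behind these levels were 184, 222 and 217 in Med12cKO, against 125, 185 and 153 in CTL. Log2 fold changes of Esrrb lay between 0.45 and 0.60 in the 18 alternative fits. The edgeR, DESeq2 or limma-voom adjusted p of these fits was at least 0.348. Their shared positive sign is not a separate result, since the groups did not overlap. With a thymus term the log2 fold change was 0.50. The unadjusted p of Esrrb stayed under 0.05 in 16 of the 18, and not in the fit without both thymus-containing libraries (0.49) or in the libraries with the letter I (0.46). Because its groups did not overlap, Esrrb had to be higher in Med12cKO under both description letters. The means under I were 22.1 CPM in Med12cKO and 16.1 CPM in CTL. Under J, with 1 library a group, the values were 21.9 CPM in Med12cKO and 14.4 CPM in CTL.

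Esrrg (chromosome 1, 187608791 to 188214885, plus strand) encodes ERRγ, which is needed in mice for the oxidative metabolism of the newborn heart. It measured 38.9, 51.7 and 37.3 CPM in Med12cKO, against 44.4, 53.0 and 38.4 CPM in CTL. The groups overlapped over most of their range, and library 2 was the highest in each. This gave a log2 fold change of −0.09 (SE 0.17, 95% interval −0.47 to 0.30).

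Tfam (chromosome 10, 71225464 to 71238280, minus strand) and Nrf1 (chromosome 6, 30047988 to 30153458, plus strand) encode the factors that act on mitochondrial DNA and on nuclear genes for mitochondria. Tfam measured 57.3, 48.6 and 55.0 CPM in Med12cKO, against 56.2, 57.0 and 56.3 CPM in CTL. The CTL libraries were within 1 CPM of each other, and Med12cKO library 1 lay above them all. For Tfam the log2 fold change was −0.08 (95% interval −0.33 to 0.18). Nrf1 measured 37.7, 34.9 and 32.9 CPM in Med12cKO, against 32.3, 33.3 and 38.4 CPM in CTL, with interleaved groups. Its log2 fold change was 0.02 (95% interval −0.27 to 0.30). These intervals leave room for differences of up to about 0.3 on the log2 scale.

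**Figure D2:**
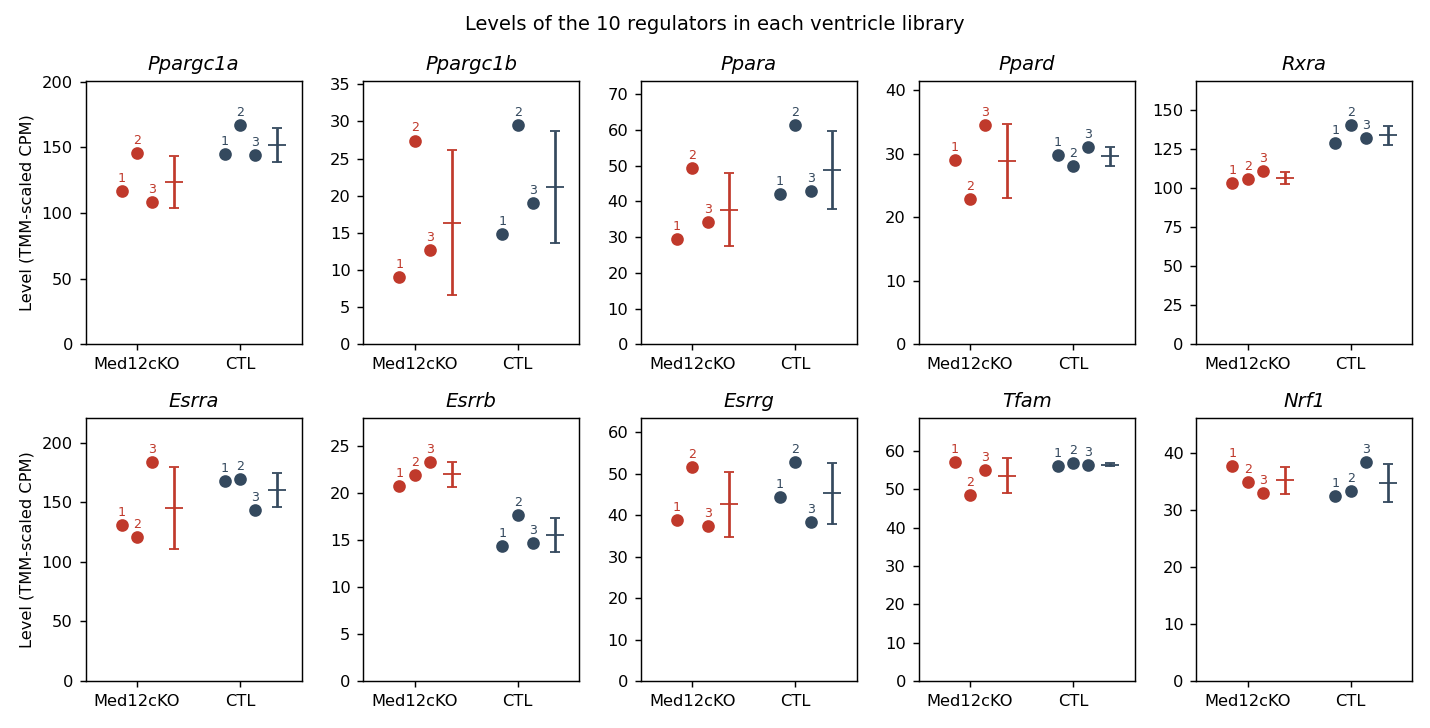
Level of each regulator (y axis, TMM-scaled CPM, from 0) in the Med12cKO and CTL libraries (x axis). Points are single libraries with their replicate number, and the bar beside them is the mean ± SD (n = 3). Rxra (103 to 111 CPM in Med12cKO, 129 to 140 CPM in CTL) and Esrrb (20.7 to 23.4 CPM in Med12cKO, 14.4 to 17.6 CPM in CTL) are the genes whose groups do not overlap.

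Levels were compared between genes per kilobase of annotated exon (CPM per kb), since a longer transcript gives more reads. Esrra stood highest, at 33.1 ± 7.81 CPM per kb in Med12cKO and 36.6 ± 3.32 CPM per kb in CTL. Rxra followed with 19.5 ± 0.73 CPM per kb in Med12cKO and 24.4 ± 1.10 CPM per kb in CTL, and Ppargc1a with 18.8 ± 2.98 CPM per kb in Med12cKO and 23.1 ± 1.98 CPM per kb in CTL. The ranges of Rxra and Ppargc1a overlapped in both groups, so their order was not resolved. Tfam and Ppara formed the middle, at 12.1 ± 1.01 and 9.83 ± 2.68 CPM per kb in Med12cKO, against 12.7 ± 0.10 and 12.7 ± 2.86 CPM per kb in CTL, with overlapping ranges. Esrrg stood at 6.87 ± 1.27 CPM per kb in Med12cKO and 7.29 ± 1.18 CPM per kb in CTL. Ppargc1b, Ppard, Nrf1 and Esrrb were lowest, with means of 3.42 to 4.11 CPM per kb in Med12cKO and 2.57 to 5.30 CPM per kb in CTL. In Med12cKO the range of each of these 4 met that of the next in order. Esrrb was the lowest of the 10 in CTL, at 2.38 to 2.91 CPM per kb, and no CTL library of the other 9 regulators was that low.

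**Figure D3:**
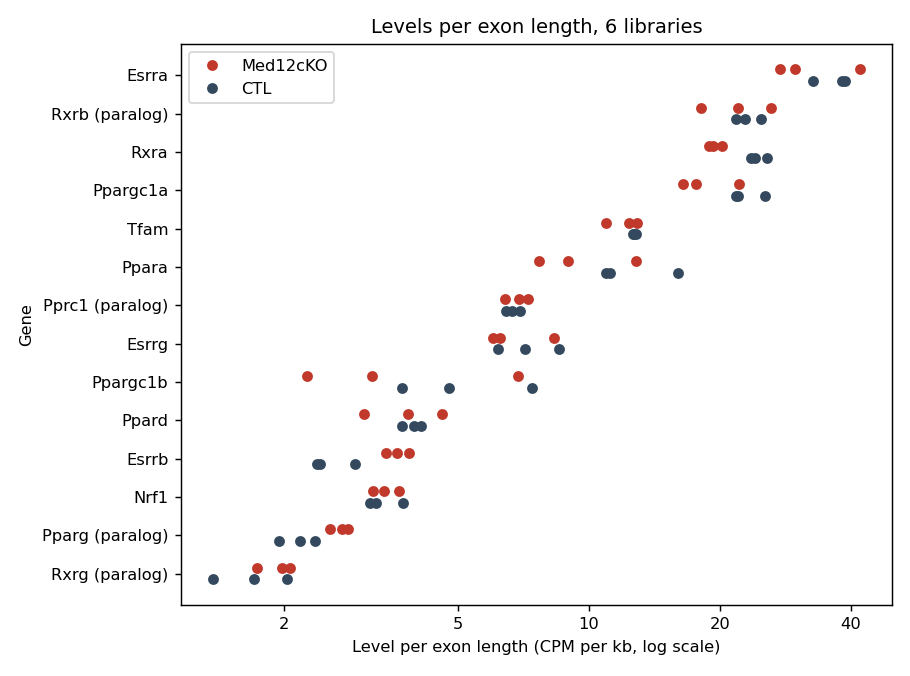
Level per exon length (x axis, CPM per kb, log scale) of the 10 regulators and of 4 paralogs (y axis) in each Med12cKO and CTL library (points). Esrra is highest at 27.5 to 42.0 CPM per kb in Med12cKO and 32.7 to 38.7 CPM per kb in CTL.

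Within families, the share of each gene in the summed level per kb was set out for each library, with Pparg, Rxrb, Rxrg and Pprc1 added after the values were seen to complete the families. Among the ERR genes Esrra made up 69.7% to 81.0% in Med12cKO and 77.2% to 80.0% in CTL. Esrrb made up 7.44% to 9.19% in Med12cKO and 4.98% to 5.85% in CTL. This share rests on the same Esrrb counts as its level and is not a separate result. Among the PPAR genes Ppara was the largest part, at 54.0% to 68.7% in Med12cKO and 64.0% to 72.5% in CTL. Pparg, the PPAR of fat cells, made up 15.02% to 19.0% in Med12cKO and 10.7% to 12.4% in CTL. Its level was 8.01, 8.29 and 7.53 CPM in Med12cKO, against 5.75, 6.95 and 6.41 CPM in CTL, with no overlap between the groups. On the log2 scale Pparg differed by 0.32 (SE 0.20), at an edgeR adjusted p of 1.00. Of 10 markers of brown and white fat, which expresses Pparg, all had a count in some library and 6 passed the filter on low counts. They summed to 662, 703 and 906 CPM in Med12cKO, against 897, 709 and 634 CPM in CTL, most of it from Fabp4. Of the 6 tested fat markers 3 had a positive and 3 a negative log2 fold change (median 0.04). The fat hormone gene Adipoq measured 7.67, 5.53 and 1.08 CPM in Med12cKO, against 1.61, 0.0953 and 1.91 CPM in CTL. Ucp1 of brown fat measured 3.27, 3.35 and 0.108 CPM in Med12cKO, against 0.345, 0 and 0.670 CPM in CTL. Their part in the level of Pparg was not tested. Ppargc1a made up 62.0% to 65.0% of the PGC-1 genes in Med12cKO and 63.8% to 68.4% in CTL. Rxra made up 42.0% to 49.0% of the RXR genes in Med12cKO and 47.9% to 50.8% in CTL, close to Rxrb, with Rxrg at most 5.02%.

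The regulators did not vary together from library to library. Set against the CTL mean on the log2 scale, Ppargc1b, Ppara, Ppargc1a and Esrrg were each highest in library 2 of both groups. Ppara, for example, stood at −0.72, 0.01 and −0.51 in Med12cKO, against −0.22, 0.33 and −0.18 in CTL. Esrra had another order, at −0.30, −0.41 and 0.20 in Med12cKO, against 0.06, 0.08 and −0.16 in CTL. The 26 genes of the ERR and PGC-1 target list had medians of −0.23, −0.25 and 0.19 in Med12cKO, against 0.13, 0.03 and −0.16 in CTL, in which, as for Esrra, Med12cKO library 3 was the highest. Med12cKO library 3 was also the highest for the PPAR targets (median 0.16) and for the genes of mitochondrial DNA upkeep (median 0.11), so this order was not particular to ERR targets. Ppard also peaked in Med12cKO library 3, at 0.22. These positions are a description over 6 libraries that share their preparation and scaling.

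**Figure D4:**
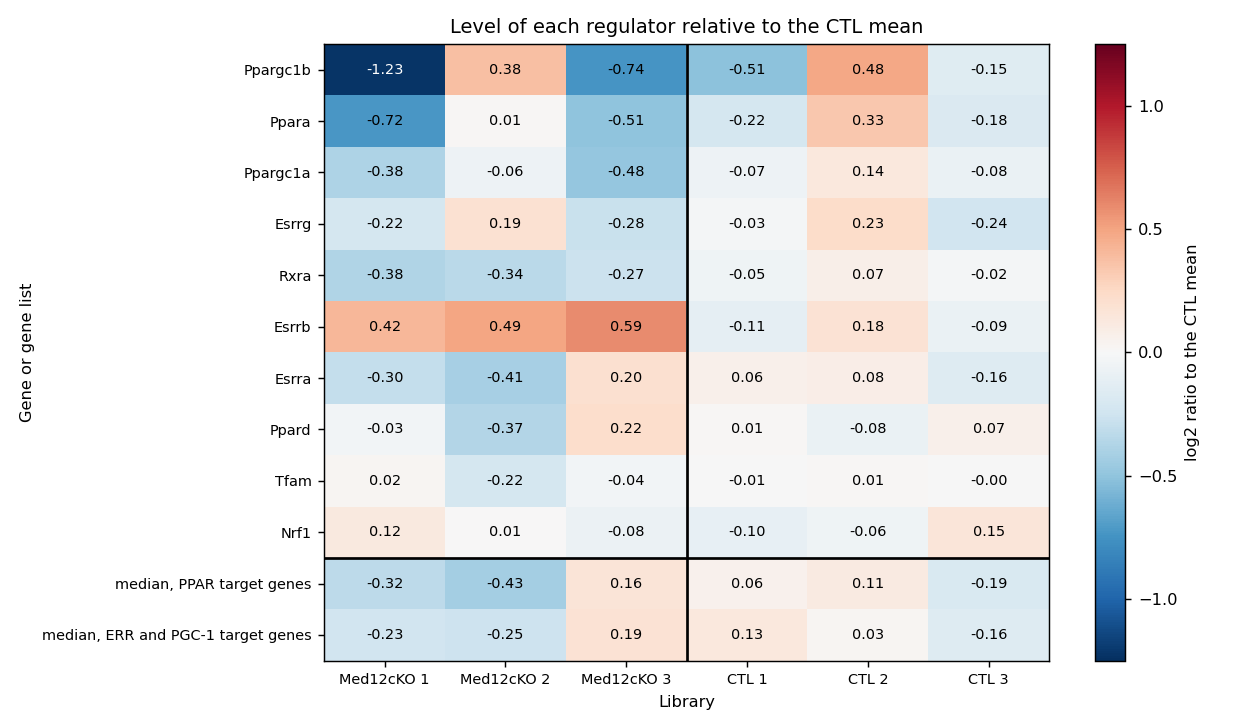
Log2 ratio of each library (x axis, Med12cKO left and CTL right of the line) to the CTL mean, for each regulator and, in the bottom rows, for the median gene of both target lists (y axis). Colour and printed numbers give the ratio. Esrrb is at 0.42 or higher and Rxra at −0.27 or lower in every Med12cKO library, while Ppara and Ppargc1b are highest in library 2 of each group and Esrra is highest in Med12cKO library 3.

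The genes with the most similar pattern were found as those with the smallest root mean square difference in centred log2 CPM over the 6 libraries, among 10790 genes with an average log2 CPM of at least 3. For Ppara they were Rbm20, a splicing regulator of heart muscle (0.05), Cacna1c, the pore of the L-type calcium channel (0.05), and Myh6, the cardiac myosin heavy chain (0.06). Myh6 measured 8242, 12613 and 8725 CPM in Med12cKO, against 10324, 16667 and 11423 CPM in CTL, the order that Ppara also had. For Ppargc1a the nearest genes were Etl4 (0.03), Usp36 (0.04) and Zmiz1 (0.05). For Esrra they were Leng1 (0.03), Clybl (0.03) and Dhrs4 (0.04), and for Esrrg 5930403L14Rik (0.02), Dag1 (0.03) and Coa7 (0.04). These are the closest of 10790 genes over only 6 libraries, so small distances come with the search itself. Shared regulation was not tested.

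The known targets of the network were then counted in lists. Of 25 PPAR target genes, all tested, 22 had a negative log2 fold change, against 47.8% of all genes tested. The median of the list was −0.19, against 0.01 over all genes. At an adjusted p under 0.05 edgeR and DESeq2 called 0 of the 25. At an unadjusted p under 0.05 there were 3 lower and 0 higher, against 1.61% lower and 2.16% higher among all genes. These 3 were also the members whose groups did not overlap, all below CTL, as 3.64% of all genes tested were. Pdk4, the kinase that shuts off pyruvate dehydrogenase, measured 390, 316 and 396 CPM in Med12cKO, against 457, 614 and 464 CPM in CTL (log2 fold change −0.48, SE 0.16, edgeR adjusted p = 0.913). Vldlr, a receptor for triglyceride-rich lipoproteins, measured 153, 200 and 145 CPM in Med12cKO, against 213, 223 and 204 CPM in CTL (log2 fold change −0.36, SE 0.14). Cpt1b, the muscle carnitine transferase that admits fatty acids to mitochondria, measured 6.43, 6.41 and 4.52 CPM in Med12cKO, against 7.02, 13.0 and 7.94 CPM in CTL (log2 fold change −0.69, SE 0.28). Cpt1b shares 81.4% of its exon bases with the read-through gene Gm44502, so its count is uncertain. The median heart muscle marker, like the median target, was lowest in Med12cKO libraries 1 and 2. The targets peaked in Med12cKO library 3 and the heart muscle markers in CTL library 1. The 25 targets had medians, set against the CTL mean, of −0.32, −0.43 and 0.16 in Med12cKO, against 0.06, 0.11 and −0.19 in CTL, and the 10 heart muscle markers had medians of −0.49, −0.46 and −0.07 in Med12cKO, against 0.10, −0.01 and −0.16 in CTL. The part of muscle cell content in the target genes was not tested. The median of the list depended on single libraries: without Med12cKO library 3 it was −0.36, and without Med12cKO library 2 it was −0.07. Without CTL library 2 it was −0.10 and without CTL library 1 it was −0.13.

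Of 26 ERR and PGC-1 target genes 22 had a negative log2 fold change, against 47.8% of all genes tested. The median of this list was −0.07, against 0.01 over all genes tested, and edgeR and DESeq2 called 0. Vegfa, the endothelial growth factor, was the only one of these targets with an unadjusted p under 0.05 and with separate groups. Of all genes tested, 1.61% were lower at that p and 3.64% lay below CTL without overlap. Vegfa measured 247, 287 and 251 CPM in Med12cKO, against 366, 389 and 306 CPM in CTL (log2 fold change −0.43, SE 0.13, edgeR adjusted p = 0.776). Sdha, a subunit of succinate dehydrogenase, had a log2 fold change of −0.24 (SE 0.15), the mitochondrial superoxide dismutase gene Sod2 −0.22 (SE 0.15) and the ADP/ATP carrier gene Slc25a4 −0.23 (SE 0.21). The median was −0.25 without Med12cKO library 3, −0.15 without CTL library 3, and −0.02, −0.01 and −0.01 without Med12cKO library 1, Med12cKO library 2 or CTL library 1. The part of muscle cell content in the ERR and PGC-1 targets was not tested either.

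Among 27 partners and modifiers of these receptors 16 had a negative log2 fold change (median −0.04), against 47.8% of all genes tested. EdgeR and DESeq2 called 0 of them. At an unadjusted p under 0.05 there was 1 lower gene, against 1.61% of all genes tested. That gene was Lpin1, which encodes the lipid phosphatase and coactivator lipin 1, at 44.1, 53.2 and 50.9 CPM in Med12cKO, against 55.2, 78.7 and 59.0 CPM in CTL (log2 fold change −0.38, SE 0.16). Perm1, a muscle gene induced by PGC-1 and ERR, measured 115, 119 and 125 CPM in Med12cKO, against 143, 151 and 126 CPM in CTL. Its groups did not overlap either, and its log2 fold change was −0.23 (SE 0.11). Among the 27 genes 2 lay below CTL and 1 above without overlap, against 3.64% and 4.59% of all genes tested. Prkaa2, the muscle catalytic subunit of AMP-activated kinase, had a log2 fold change of −0.19 (SE 0.14). Of 17 genes for upkeep and transcription of mitochondrial DNA 11 had a negative log2 fold change (median −0.07), with 0 at an unadjusted p under 0.05 and 0 called by either tool. Those of the 17 with the lowest p were Tefm (−0.27, SE 0.18), Peo1 (−0.18, SE 0.14), Polrmt (−0.14, SE 0.13) and Polg2 (−0.23, SE 0.21). They encode an elongation factor, the helicase, the RNA polymerase and a polymerase subunit. Polg2 was the one of these 17 whose groups did not overlap, and 3.64% of all genes tested lay below CTL in this way. Of 15 listed genes encoded by mitochondrial DNA, 0 were found in the count table, so their transcripts could not be analysed.

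**Figure D5:**
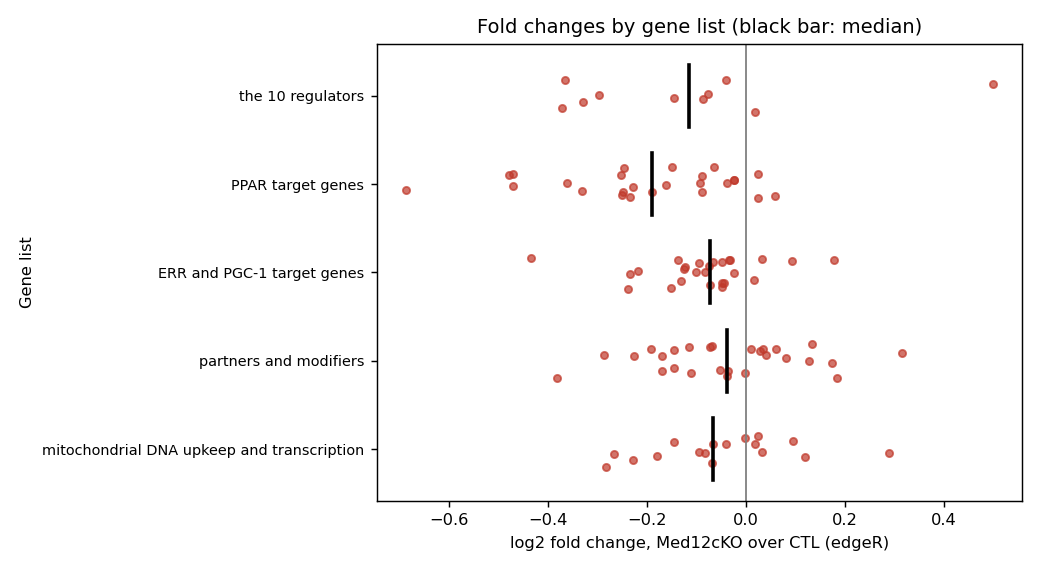
Log2 fold change, Med12cKO over CTL (x axis, edgeR), of each tested gene (points) in the 10 regulators and in 4 lists of related genes (y axis). Black bars are medians, from −0.19 for PPAR target genes to −0.04 for partners and modifiers, and none of the genes shown passed an adjusted p of 0.05.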

How the data were processed

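RNA was measured in 3 Med12cKO and 3 CTL ventricle libraries, grouped and numbered by sample title. The authors deposited 1 table of unnormalized read counts, listed by gene symbol. The submitters' processing notes name TopHat2 2.0.0, featureCounts, edgeR 3.14.0 and GRCm38 (mm10). The sources used here do not give the annotation, strand setting or filters. No label ties a library to 1 animal, so the p-values reflect differences among these libraries, which may be technical. All pairs of libraries within a group differed beyond counting noise (chi-square over its degrees of freedom 15.3 to 31.0).

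Genes were tested with the quasi-likelihood F test of edgeR 4.0.16 (R 4.3.3) with robust dispersions, TMM scaling and filterByExpr (minimum count 10, minimum total 15), and Benjamini-Hochberg adjustment over 13629 genes. CPM are counts over TMM-scaled totals of the tested genes. Standard errors were taken as the log2 fold change over the square root of F. A count of 0 allows (3 counts) up to 0.286 to 0.345 CPM by library, counting error only. Alternatives included DESeq2 1.42.0, limma-voom (limma 3.58.1), other scalings and filters, blocks, left-out libraries, and, added after the data were seen, a thymus term, both thymus libraries left out, and an offset for exon length and GC content. The scripts were tested on simulated counts. Positions and exon lengths came from GENCODE M21 (GRCm38). Members and lists were chosen with earlier results of these data known. Named genes are the members, Med12, up to 4 genes of lowest p per pathway list (1 such gene is not reported here), leading markers, and the 3 genes closest in pattern to Ppara, Ppargc1a, Esrra and Esrrg.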

Additional observations from a re-analysis of the deposited data

How the results depend on the processing

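No regulator and no gene of the 4 related lists passed an adjusted p of 0.05 in any of the 18 alternative fits. Over all genes, 3 were called, against 61 with DESeq2 (29 higher, 32 lower), 1 in the libraries with the letter I, and 1 to 3 when 1 library was left out (1 without Med12cKO replicate 3). Ppargc1a, Ppargc1b, Ppara, Rxra and Tfam stayed negative and Esrrb positive in all 18. For Rxra and Esrrb, whose groups did not overlap, leaving libraries out could hardly turn the sign. Sizes moved when 1 library was left out, with Ppargc1b between −0.96 and −0.04, Ppara between −0.61 and −0.17, Esrra between −0.36 and −0.03, Ppargc1a between −0.43 and −0.21 and Tfam between −0.14 (without Med12cKO replicate 1) and −0.01 (without Med12cKO replicate 2). In the libraries with the letter I the sign turned for Ppard (0.12), Esrra (0.0169) and Nrf1 (−0.0152). When 1 library was left out, Ppard ran from −0.19 to 0.10, Esrrg from −0.25 to 0.0444 and Nrf1 from −0.0463 to 0.0961 (Nrf1 −0.0463 without Med12cKO replicate 1, −0.0285 without CTL replicate 1 and −0.0084 without CTL replicate 2). The cause of these changes was not tested. With 1 library left out, median log2 fold changes ran from −0.3575 to −0.071 for PPAR targets, −0.2488 to −0.0085 for ERR and PGC-1 targets, −0.1112 to −0.0236 for mitochondrial DNA upkeep, and −0.12 to 0.03 for partners (above 0 without Med12cKO replicate 3 or CTL replicate 2). In the libraries with the letter I the median of mitochondrial DNA upkeep genes was 0.0032 and that of ERR and PGC-1 targets 0.0568.

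With the replicate block 2 genes were called over all genes and 0 of the regulators. Log2 fold changes were −0.33 for Rxra and 0.50 for Esrrb. The block changed the SE of other regulators more. That of Ppara (log2 fold change −0.38) fell from 0.22 to 0.12 and that of Ppargc1b (−0.46) from 0.45 to 0.19. That of Ppargc1a (−0.31) fell from 0.14 to 0.11. In the block fit Ppara, Ppargc1b and Ppargc1a also had an unadjusted p under 0.05. Same-numbered libraries deviated together for number 2 (r across genes of 0.46), but not for numbers 1 and 3 (r of −0.32 and −0.36). The highest r, 0.73, was between Med12cKO library 1 and CTL library 3, which both held thymus transcripts. Med12cKO library 3 and CTL library 1 had an r of 0.33. The numbers were therefore not taken as pairs. At 3 libraries a group, the 95% intervals of the regulators were −0.56 to −0.09 for Rxra but −1.43 to 0.70 for Ppargc1b, the widest.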
